A study of Mus musculus with 8 samples.

Results

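The genes described here are the 2 liver X receptors (LXRs) of the mouse and 8 genes that LXRs switch on or that serve the export of cholesterol. The 10 genes were Nr1h3, Nr1h2, Abca1, Abcg1, Apoe, Pltp, Mylip, Srebf1, Lpcat3 and Scd2. They were found as the probe sets whose number is the Entrez gene number of the gene, and all 10 were present among 24012 genes. The platform annotation listed 9 of them, and Nr1h2 (probe set 22260) was matched by its number to RefSeq. RNA came from primary macrophages grown from the bone marrow of wild-type mice aged 8 to 10 weeks. Marrow cells were kept for 7 days in medium conditioned by L cells, a fibroblast line that secretes the macrophage growth factor M-CSF, and were reseeded at 150000 cells per well. The next day 4 samples received hepcidin at 10 µg/ml for 1 h and 4 received PBS, and total RNA was measured on 8 Affymetrix whole-transcript arrays. The sources used here do not give strain, sex or the number of animals. The titles number the samples of each group 1 to 4 without saying what a number stands for, so the p-values speak of the variation among these arrays, some or all of which may be technical.

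Hepcidin, a peptide made mainly by the liver, makes cells internalise and destroy the iron exporter ferroportin. LXRs are nuclear receptors that bind oxysterols, the oxidised derivatives of cholesterol, and sit on DNA as partners of RXR. In macrophages loaded with cholesterol they raise the transporters that pass it to lipoproteins, the apolipoprotein that carries it, and enzymes that make unsaturated fatty acids and phospholipids. A second sterol sensor, SREBP-2, works in the opposite situation and raises cholesterol synthesis and uptake when membrane cholesterol is low.

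The sequences shown here were taken from those in which an LXR element could be read, since it is the feature by which an LXR recognises its targets. RefSeq (GRCm38.p6) gave windows from 250 bases before to 50 bases after the start for 8 of the 10 genes, 13 windows in all, among them 3 of Srebf1. The half-site GGTTA followed, after 4 free bases, by the half-site CGGTCA, letters taken from the known element of Abca1, was searched on both strands. This was found in 4 of 32851 windows, or 0.0122%, which belonged to Abca1, Srebf1, Fasn and Prrg4. The letters were chosen with these promoters in mind, so the match is a description and no test. Capitals mark the element, which lies on the opposite strand and so reads TGACCG, 4 free bases and TAACC here. For Abca1 and Srebf1 the 250 bases before the start are given, and for the fatty acid synthase gene Fasn the element with 20 bases on each side. Prrg4, which is in none of the gene lists used here, also held the element and is not shown.
Abca1, chr4:53159896-53160145, minus strand: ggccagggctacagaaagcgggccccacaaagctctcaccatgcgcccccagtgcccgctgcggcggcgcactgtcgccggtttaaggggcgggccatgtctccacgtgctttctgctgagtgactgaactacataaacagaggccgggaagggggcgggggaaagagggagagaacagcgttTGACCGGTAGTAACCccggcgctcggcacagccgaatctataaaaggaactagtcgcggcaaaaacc
Srebf1, chr11:60210472-60210721, minus strand: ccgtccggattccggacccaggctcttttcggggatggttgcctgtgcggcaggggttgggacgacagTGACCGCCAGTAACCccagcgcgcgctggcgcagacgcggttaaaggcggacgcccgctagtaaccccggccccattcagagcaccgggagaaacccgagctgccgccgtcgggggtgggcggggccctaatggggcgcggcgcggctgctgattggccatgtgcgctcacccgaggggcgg
Fasn, chr11:120824738-120824792, minus strand: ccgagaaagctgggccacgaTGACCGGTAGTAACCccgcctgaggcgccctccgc
The element began 67 bases before the start of Abca1, 182 before one of the listed starts of Srebf1 and 225 before that of Fasn. The array has 1 probe set per gene, so transcripts from the 3 starts of Srebf1 were not measured apart. The E-box CACGTG, the same on both strands and present in 7.15% of all windows, stood 147 bases before the start of Abca1. The sterol element TCACNCCAC, searched on both strands, was in 1.24% of all windows and in 0 of the 13.

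The 10 genes were expressed above the level of nearly all background markers in these cells, and none of them had a change within 1 h of hepcidin that passed the test. Values are log2 RMA values, and a difference of 1 is a doubling. All 10 had means over the 8 arrays between 7.57 and 12.0, whereas 17 markers of endothelium and of B, T and NK cells, used as a measure of background, had a median of 3.87 and a 90th percentile of 5.63. The endothelial marker Kdr, at 7.51, was the only one of the 17 with a mean of at least 6. Macrophage markers (Adgre1, Csf1r, Cd68, Cd14, Itgam and Fcgr1) had means between 10.4 and 13.1. In limma, 0 of 10 genes passed an adjusted p of 0.05 for hepcidin against PBS, and 0% of all 24012 genes did. At an unadjusted p under 0.05 the count was 0 of 10, against 2.86% of all genes. The groups overlapped for each of the 10, while they did not overlap for 1.88% of all genes. Log2 changes were above 0 for 5 genes and below 0 for 5, between -0.08 and 0.15, with a median of 0.01 against 0.00095 for all genes. Each had an adjusted p of 1.00 in limma.

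**Figure D1:**
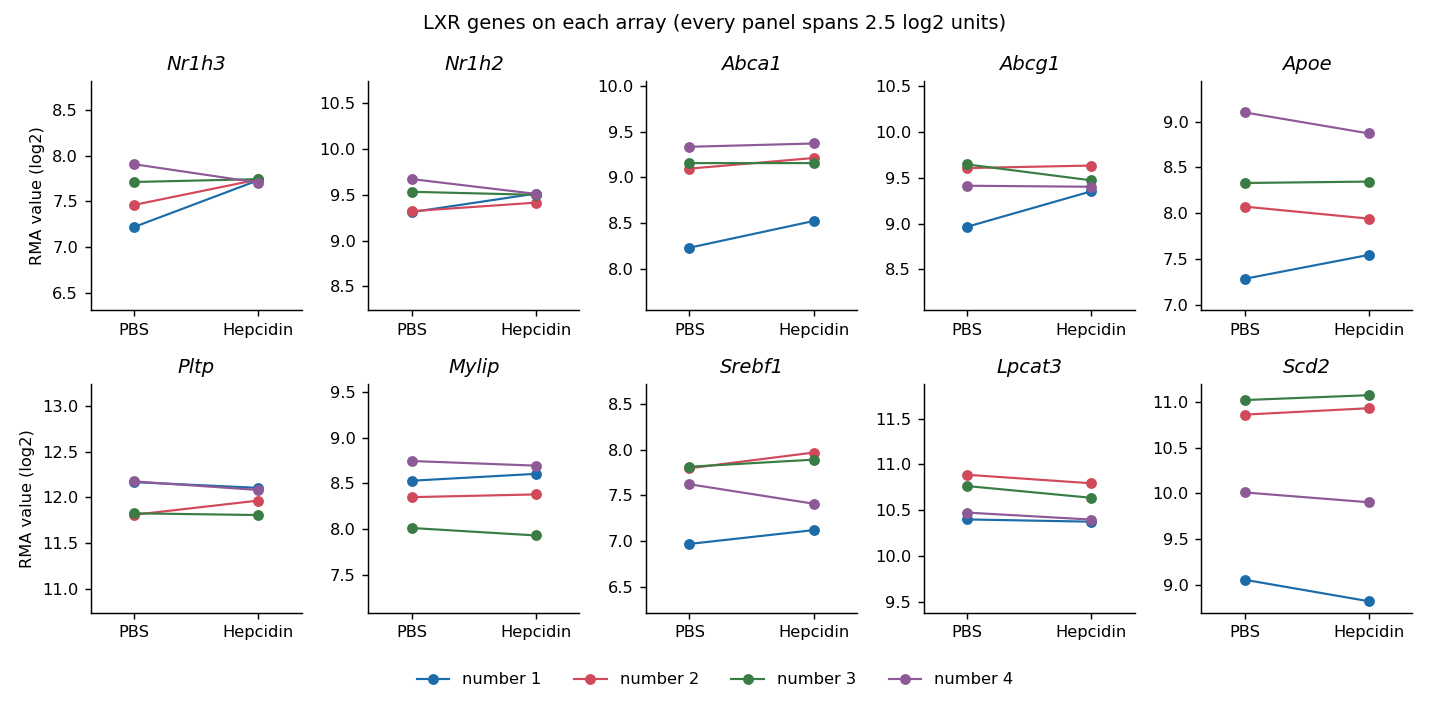
RMA values (log2) of the 10 genes on every array, with a line joining the PBS and the Hepcidin array of the same number. Every panel spans 2.5 log2 units. Lines run nearly flat for most genes while the 4 numbers stand apart, most of all for Scd2 (8.82 to 11.07) and Apoe (7.28 to 9.10).

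The receptor gene Nr1h3, which encodes LXRα, the form enriched in macrophages and liver, stood at 7.22, 7.46, 7.71 and 7.91 with PBS on numbers 1 to 4. With hepcidin it stood at 7.73, 7.74, 7.74 and 7.70. The PBS arrays were spread out and the hepcidin arrays lay close together inside their range, with an SD of 0.30 against 0.02, a difference in spread that was not tested. The change was 0.15 ± 0.13 (SE, limma), the highest among the 10 genes, and in 3 of 4 pairs of same-numbered arrays it was higher with hepcidin. Nr1h2, which encodes the widely expressed LXRβ, was at 9.31, 9.32, 9.53 and 9.67 with PBS and at 9.51, 9.42, 9.50 and 9.51 with hepcidin. Here, too, the hepcidin values lay inside the PBS range, as those of Abcg1 and Apoe lay inside theirs. The change of Nr1h2 was 0.03 ± 0.10. The 95% intervals of the change ended at 0.45 for Nr1h3 and at 0.24 for Nr1h2.

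Abca1 encodes the transporter that hands cholesterol to lipid-poor apolipoprotein A-I. Its PBS values were 8.23, 9.10, 9.16 and 9.33 and its hepcidin values 8.53, 9.21, 9.16 and 9.37. Both arrays numbered 1 were low, and the other 6 lay together. Hepcidin was higher in 4 of 4 pairs, by 0.29, 0.12, 0.0006 and 0.04, a pattern that 5.69% of all genes had. The change of 0.11 ± 0.25 was below the spread between arrays, with a 95% interval up to 0.66, and it was -0.13 without the PBS array numbered 1. Abcg1, whose product moves cholesterol to mature high-density lipoprotein, was at 8.97, 9.61, 9.65 and 9.41 with PBS and at 9.35, 9.63, 9.47 and 9.40 with hepcidin. Its lowest value was that of the PBS array numbered 1, and the change was 0.06 ± 0.15, with 2 of 4 pairs higher.

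Among the secreted carriers, Apoe, the apolipoprotein that macrophages release with cholesterol, stood at 7.28, 8.07, 8.33 and 9.10 with PBS. With hepcidin its values were 7.54, 7.94, 8.34 and 8.87. The 4 numbers kept the same order in both groups, and the change was -0.02 ± 0.37. Pltp, the phospholipid transfer protein of lipoproteins, was at 12.17, 11.81, 11.83 and 12.17 with PBS and at 12.10, 11.96, 11.81 and 12.08 with hepcidin. It varied little over all 8 arrays, and the change was -0.01 ± 0.12. Mylip encodes the ubiquitin ligase IDOL, through which LXRs remove the LDL receptor. It was at 8.53, 8.35, 8.01 and 8.74 with PBS and at 8.60, 8.38, 7.93 and 8.69 with hepcidin, lowest on number 3 in both groups. Its change was -0.01 ± 0.19.

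The lipid synthesis genes did not pass either. Srebf1, which encodes the fatty acid regulator SREBP-1, was at 6.97, 7.80, 7.81 and 7.62 with PBS and at 7.12, 7.97, 7.89 and 7.41 with hepcidin, a change of 0.05 ± 0.23. Number 1 was lowest in both groups. Lpcat3, which puts polyunsaturated fatty acids into membrane phospholipids, was at 10.40, 10.89, 10.76 and 10.47 with PBS and at 10.37, 10.79, 10.64 and 10.40 with hepcidin. It was lower with hepcidin in 4 of 4 pairs, as 5.92% of all genes were. The pair differences lay between -0.13 and -0.02, and the change of -0.08 ± 0.14 did not pass. Scd2, a stearoyl-CoA desaturase that makes monounsaturated fatty acids, was at 9.06, 10.86, 11.02 and 10.01 with PBS and at 8.82, 10.93, 11.07 and 9.90 with hepcidin. Its numbers stood far apart while its change was -0.05 ± 0.54, with a 95% interval from -1.26 to 1.15.

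**Figure D2:**
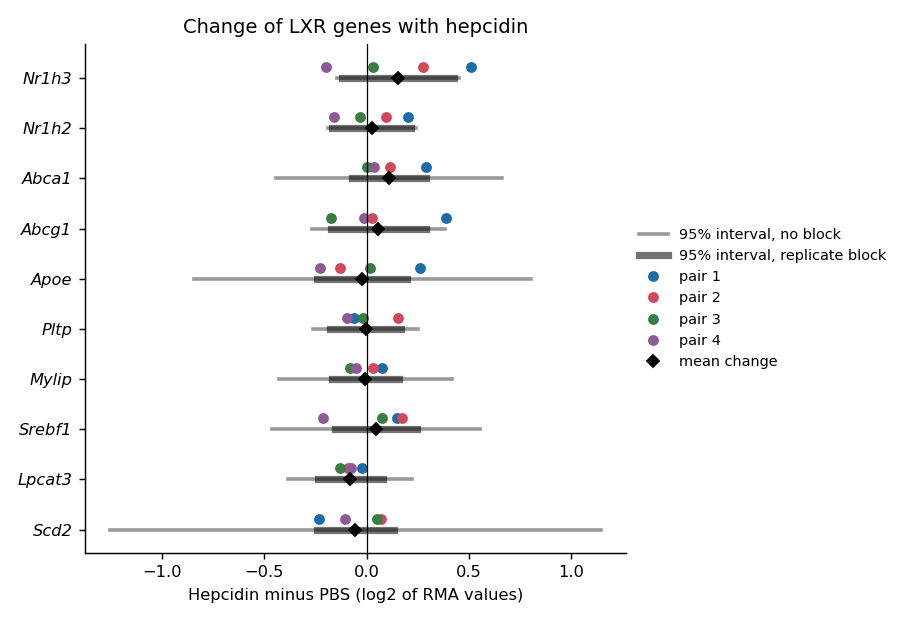
Change with hepcidin (Hepcidin minus PBS, log2) of the 10 genes. Coloured points are the 4 pairs of same-numbered arrays, diamonds the mean change, grey lines its 95% interval in limma without the replicate number and dark bars that with the number as a block. Every interval includes 0, and the interval of Scd2 runs from -1.26 to 1.15 without the block and from -0.24 to 0.13 with it.

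Same-numbered arrays deviated together (correlations of deviations from the group mean across genes of 0.34 to 0.55), so the number was also used as a block in limma. With the replicate block 0 of the 10 genes passed, against 0.00416% of all genes, and 0 had an unadjusted p under 0.05, against 4.91%. The block brought the SEs of the 10 genes from between 0.10 and 0.54 to between 0.07 and 0.12. The 95% intervals with the block then lay between -0.24 and 0.43 for all 10, the upper end being that of Nr1h3.

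No other gene of the pathway lists passed for hepcidin, without or with the replicate block. At an unadjusted p under 0.05 in limma there was 1 further LXR target (Abcg8) and 1 LXR partner (Rxrb), against 2.86% of all genes. With the block there was 1 SREBP-2 target (Mvd) in addition, against 4.91% of all genes. Of 18 further LXR targets, 9 were higher and 9 lower with hepcidin and 0 passed in limma, with a median change of -0.00070. The members with the smallest unadjusted p were Abcg8 (-0.19 ± 0.07) and Apoc1 (-0.14 ± 0.09), with PBS levels of 4.31 and 3.82, below the 90th percentile of the background markers. Of 14 LXR partners and cofactors, 4 were higher and 10 lower, 0 passed and the median was -0.04. Rxrb, which encodes a partner receptor of LXRs, changed by 0.19 ± 0.08 and the coactivator gene Ncoa1 by -0.13 ± 0.07. Of 19 other genes of cholesterol handling, 10 were higher, 9 lower and 0 passed, with a median of 0.03, Abca7 at 0.10 ± 0.08 and Lcat at -0.08 ± 0.10. Of 21 SREBP-2 targets and regulators, 13 were higher, 8 lower and 0 passed, with a median of 0.03. The synthesis genes Mvd and Sc5d had the smallest unadjusted p in that list, with changes of 0.23 ± 0.25 and -0.14 ± 0.22. With the replicate block the SEs were 0.08 and 0.07. The 95% interval of Mvd was then 0.04 to 0.43, with an adjusted p of 0.967 in limma, and that of Sc5d was -0.31 to 0.03. Mvd was higher with hepcidin in 4 of 4 pairs, as 5.69% of all genes were.

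While no change with hepcidin passed the test, the level of 5 LXR genes differed between the replicate numbers. The limma F test of the number, with treatment as a covariate, asks whether the 4 pairs differ beyond the spread within pairs. It called 5 of the 10 genes, against 5.6% of all genes and 11.9% of the 9275 genes with a mean of at least 6, a level that all 10 reached. The members and the pathway and marker lists were chosen with earlier results of these data known. Their counts beside the shares of all genes, here and below, are therefore a description and no test of enrichment. Scd2 had an F of 145 (adjusted p 0.000525), Apoe 48.0 (0.00394), Abca1 30.3 (0.00866), Mylip 20.9 (0.0175) and Srebf1 20.0 (0.0189). Lpcat3 (F 9.94, adjusted p 0.0702), Pltp (4.70, 0.209) and Abcg1 (4.22, 0.240) did not pass, nor did the receptor genes Nr1h3 (1.52, 0.560) and Nr1h2 (1.47, 0.572). When only the genes with a mean of at least 6 were tested, 31.2% of them and 7 of the 10 passed, Lpcat3 and Pltp in addition, and the same 7 passed with trend and robust variance, against 11.8% of all genes. Without both arrays numbered 1, Apoe (adjusted p 0.0476) and Scd2 (0.0400) passed and Abca1 (0.459), Mylip (0.0595) and Srebf1 (0.324) did not, against 0.691% of all genes. Mylip was also lost without number 3 (0.262) and without number 4 (0.0641).

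**Figure D3:**
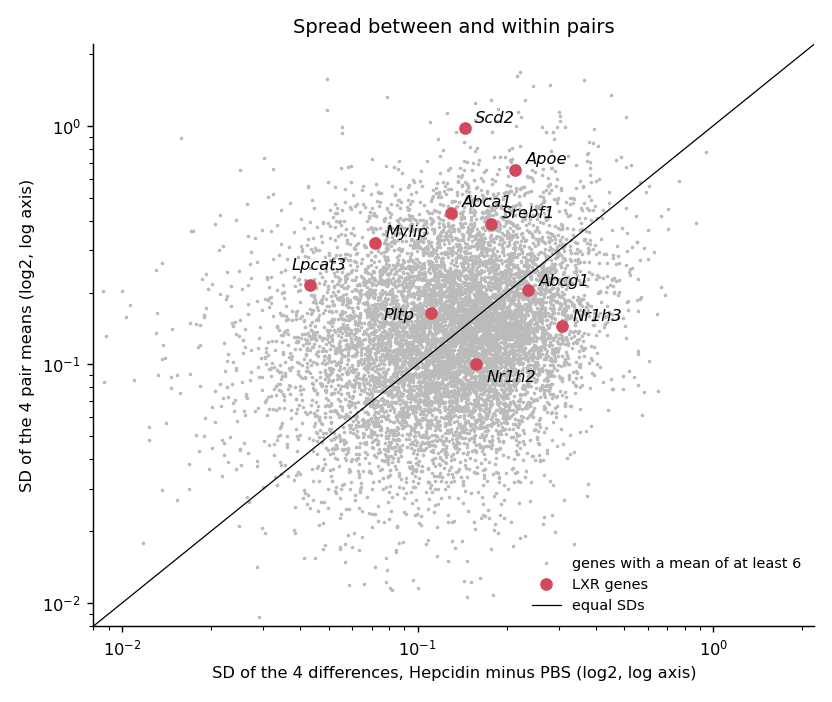
SD of the 4 pair means (vertical) against the SD of the 4 Hepcidin minus PBS differences (horizontal), both on log axes, for the 10 genes (red) and the 9275 genes with a mean of at least 6 (grey). Above the line the SD of the pair means is the larger, as for 7 of the 10 genes, and Scd2 (0.97 against 0.14) stands highest among them. The mean of a pair varies less than the difference between its arrays, so the line does not mark where the numbers stop differing.

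The SD of the 4 pair means was above the SD of the 4 hepcidin differences for 7 of the 10 genes, against 30.2% of all genes and 50.7% of those with a mean of at least 6. Its median was 0.27 for the 10 genes, 0.11 for all genes and 0.13 for genes with a mean of at least 6. Only 0.323% of the latter had an SD of pair means as large as that of Scd2, 0.97. Nr1h3, Nr1h2 and Abcg1 were the members for which the SD of the hepcidin differences was the larger. These SDs are on unlike scales, since the mean of a pair varies less than the difference between its arrays. Equal SDs therefore do not mark where the numbers stop differing, and that question belongs to the F test.

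The genes did not share 1 pattern over the numbers, and they are ordered here by patterns read from their values. Scd2, Srebf1 and Lpcat3 were lower on numbers 1 and 4 than on numbers 2 and 3. The mean of the 2 arrays of each number was 8.94, 10.90, 11.05 and 9.96 for Scd2, so that the highest pair exceeded the lowest 4.30-fold. It was 7.05, 7.88, 7.85 and 7.51 for Srebf1, a 1.79-fold range, and 10.39, 10.84, 10.70 and 10.44 for Lpcat3, a 1.37-fold range. The mean of the 21 SREBP-2 targets and regulators was likewise 7.44, 8.33, 8.29 and 7.60. In that list 18 of the 21 genes were called in the limma F test of the number, against 5.6% of all genes and 11.9% of those with a mean of at least 6 (8 without number 1, against 0.691% of all genes). They were Srebf2, Insig1, Hmgcs1, Mvd, Pmvk, Idi1, Fdps, Fdft1, Sqle, Lss, Cyp51, Msmo1, Nsdhl, Hsd17b7, Ebp, Sc5d, Dhcr7 and Stard4. Srebf2, which encodes SREBP-2 itself, stood at 8.29, 9.22, 9.28 and 8.68, and the lanosterol demethylase gene Cyp51 at 6.74, 8.61, 8.47 and 7.13.

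Abca1 and Apoe followed another order. Their pair means were 8.38, 9.15, 9.16 and 9.35 for Abca1, a 1.96-fold range, and 7.41, 8.01, 8.34 and 8.98 for Apoe, a 2.97-fold range. Both were lowest on number 1 and highest on number 4, the number on which the SREBP-2 genes and Scd2 were low. The pair mean of Abcg1 was 9.16 on number 1 against 9.62, 9.56 and 9.41, and that of Nr1h3 7.48 against 7.60, 7.73 and 7.81. Neither passed the F test of the number, and the low mean of Nr1h3 came from the PBS array alone (7.22), since its hepcidin array numbered 1 (7.73) was not the lowest. Mylip ran differently, with pair means of 8.57, 8.37, 7.97 and 8.72 and a 1.68-fold range, lowest on number 3. Pltp was at 12.13, 11.89, 11.82 and 12.13, and Nr1h2 at 9.41, 9.37, 9.52 and 9.59.

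**Figure D4:**
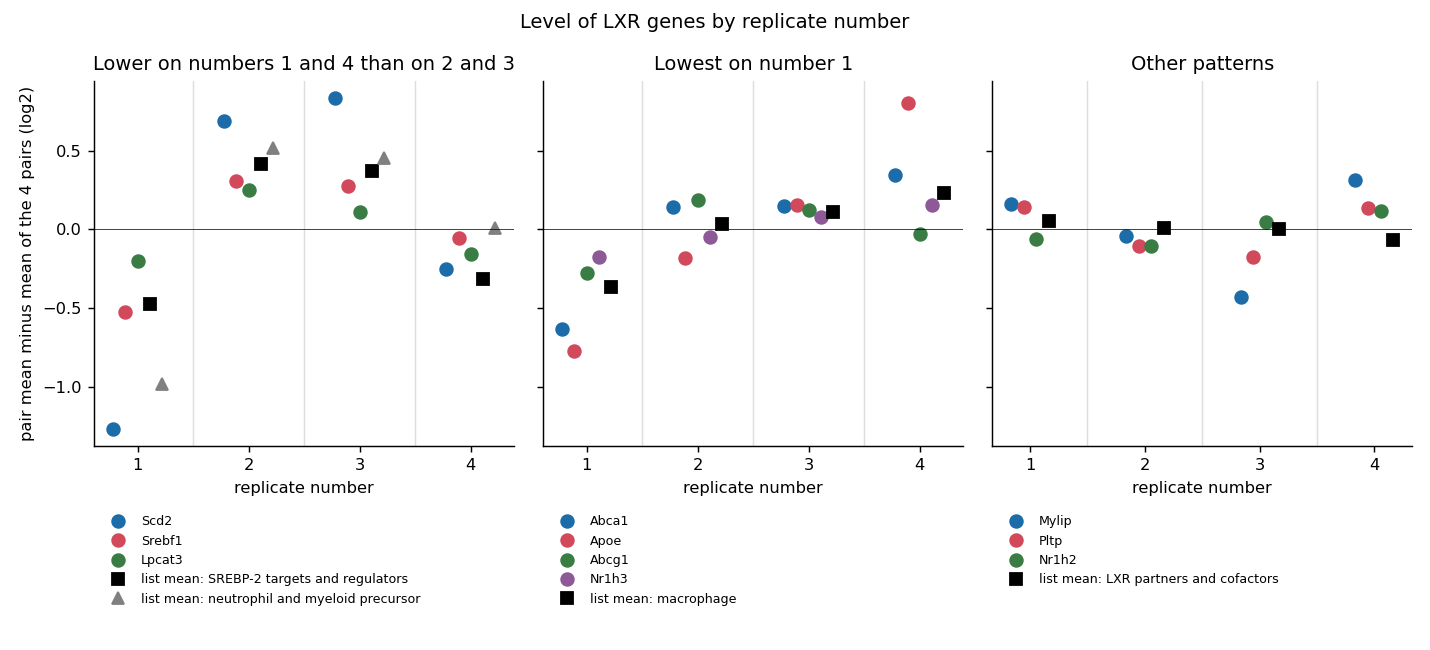
Mean of the PBS and Hepcidin array of each replicate number, minus the mean of the 4 numbers (log2), for the 10 genes in 3 panels, with means of comparison lists as black squares and grey triangles. Scd2, Srebf1, Lpcat3 and the SREBP-2 list sit lower on numbers 1 and 4 than on 2 and 3, Abca1 and Apoe are lowest on 1 and highest on 4, and Mylip is lowest on 3.

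Other LXR targets differed between the numbers too. Of the 18 measured, 14 had a mean of at least 6. In the limma F test of the number 8 of the 18 were called. The share was 5.6% of all genes and 11.9% of those with a mean of at least 6. Without number 1 the count was 3, against 0.691% of all genes. The fatty acid genes Fads2, Fasn, Scd1 and Fads1 were lower on numbers 1 and 4 than on 2 and 3, as Scd2 was. On numbers 1 to 4, Fads2 stood at 5.58, 8.48, 8.88 and 7.42 and Fasn at 7.11, 8.56, 8.86 and 8.21. Scd1 stood at 6.43, 7.04, 7.84 and 6.80 and Fads1 at 9.29, 9.92, 9.90 and 9.61. Apoc2, from the gene cluster that also holds Apoe, stood at 6.50, 7.22, 7.30 and 7.94, lowest on number 1 and highest on number 4. The phosphodiesterase gene Smpdl3a was at 11.40, 10.55, 10.78 and 10.97 and the macrophage gene Cd5l at 8.79, 7.39, 8.48 and 8.78, both lowest on number 2. Mertk, a receptor for dying cells, was at 7.92, 8.58, 8.56 and 8.28. Of the 14 LXR partners and cofactors, 0 were called in limma, and their mean varied between 7.65 and 7.77 over the 4 numbers. The count was 2 when only genes with a mean of at least 6 were tested, of which 31.2% passed. It was 1 among genes at or above the median, and 1 with trend and robust variance, against 11.8% of all genes. At an unadjusted F test p under 0.05 there were 2 (Tbl1xr1 and Ppard), a share of the 14 below the 20.6% of all genes and the 35.2% of genes with a mean of at least 6.

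Markers of neutrophils and myeloid precursors also differed between the numbers. The mean of 10 neutrophil and myeloid precursor genes was 4.38, 5.88, 5.82 and 5.37 on numbers 1 to 4, and 8 of the 10 were called in the F test of the number, against 5.6% of all genes. The primary granule genes Elane (4.83, 7.00, 7.06 and 6.31) and Mpo (4.77, 7.28, 7.09 and 6.51) were below the 90th percentile of the background markers (5.63) on number 1 and above it on the others. Both were below the background marker Kdr (7.75, 7.18, 7.39 and 7.72) on every number, except Mpo on number 2. The mean of 6 macrophage markers was 11.33, 11.73, 11.81 and 11.93, and 1 of the 6 was called, Fcgr1, at 9.01, 10.58, 10.71 and 11.35, a share near the 11.9% of genes with a mean of at least 6. Means of dendritic cell, B cell, T and NK cell, endothelial, fibroblast, adipocyte and hepatocyte markers lay between 3.84 and 4.91 on every number. In such bulk samples fewer cells of a type and less RNA per cell cannot be told apart, and the part of precursor cells in the levels of the LXR genes was not tested.

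Likeness was measured as the root mean square difference between the deviations of 2 genes from their own means over the 8 arrays. It was taken among 8951 other genes with a mean of at least 6, leaving out predicted genes (Gm or Rik symbols). Scd2 had the widest range among the 10 LXR genes. Closest to it were Elane (0.18), the sterol carrier gene Stard4 (0.25), the BMP receptor gene Bmpr1a (0.26), Cyp51 (0.27) and Mpo (0.30). Those closest to Abca1 were Parp12 (0.07), the immunoproteasome gene Psmb9 (0.07), Lpcat4 (0.08), Cotl1 (0.08) and Gnb4 (0.08). The pair means of Psmb9 were 7.08, 7.82, 7.87 and 7.93 on numbers 1 to 4.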

How the data were processed

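Per the submitters' processing notes, the authors made the deposited log2 values with RMA and affy 1.36.1. RMA subtracts background, equalises the distributions of the arrays and combines the probes of a set. The sources used here do not give the build or the probe set definition, and only the promoter windows carry coordinates. Values ran from 1.73 to 13.6. Of 24973 probe sets, 24015 had a symbol in the platform annotation. Nr1h2 was added by its number, and the brightest probe set was kept for 4 symbols, which left 24012 genes.

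R 4.3.3 with limma 3.58.1 (lmFit, eBayes) compared hepcidin with PBS, and a moderated F test compared the 4 replicate numbers. P-values were adjusted over all genes (Benjamini-Hochberg, threshold 0.05). The number pairs the arrays by the titles and a check: same-numbered arrays had correlated deviations from their group's means (0.34 to 0.55), others did so less (-0.36 to 0.12). Both tests were tested on simulated data. The members and the 4 pathway and 9 marker lists were chosen with earlier results of these data known. The rule for named genes took all 10 members and the 5 genes most like Abca1 and Scd2. Of each pathway list it took genes that passed a test, or else the 2 with the smallest p-values for hepcidin. It also took the 2 with the smallest F test p-values for the number. The values shown for Srebf2 and the markers named were singled out for their role or value. Alternatives were other scalings, filters on dim genes, all probe sets, other variance models, the block and leaving out arrays. A test of annotated genes alone was added after seeing the data. Figures were drawn with matplotlib 3.10.9.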

Additional observations from a re-analysis of the deposited data

Results flagged for a closer look

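Of 28 groups of 4 arrays examined (each of the 10 genes and the mean of each of the 4 pathway lists, with PBS and with hepcidin), 1 held an array far from the others. The hepcidin array numbered 2 had an Nr1h2 value of 9.42, while the other 3 hepcidin arrays lay at 9.50 to 9.51. Chance gives such a gap in about 1 in 20 groups. The 3 close values make the gap large relative to the range, and the array lies inside the range of the PBS arrays.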

How the results depend on the processing

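For hepcidin against PBS, 0 of the 10 genes and 0 genes of the 4 pathway lists passed in limma under each of the 23 alternatives, except that Nr1h2 was not tested in the 1 limited to the platform annotation. The count over all genes was 3 among genes with a mean of at least 6, 1 with the replicate block as a fixed term, 5 with the replicate block as a random term, and 0 to 2 when single arrays, or with the block both arrays of a number, were left out (2 without the hepcidin array numbered 2). The replicate block changed no call of the 10 genes. Log2 changes near 0 turned sign: with median centring Pltp was at 0.011 and Mylip at 0.0092, and with array weights Abcg1 was at -0.0043 and Pltp at 0.013. When arrays or numbers were left out, changes ran from -0.034 to 0.096 for Nr1h2, -0.13 to 0.29 for Abca1, -0.090 to 0.14 for Abcg1, -0.33 to 0.28 for Apoe, -0.066 to 0.056 for Pltp, -0.14 to 0.15 for Mylip, -0.15 to 0.21 for Srebf1, -0.16 to 0.0047 for Lpcat3 and -0.45 to 0.40 for Scd2. Nr1h3 stayed between 0.04 and 0.27. Leaving out 1 array keeps its same-numbered partner, so these ranges also hold differences between the numbers. With the block and both arrays of a number left out, Abca1 ran from 0.051 to 0.15 and Srebf1 from 0.0051 to 0.13. Lpcat3 then ran from -0.099 to -0.065, Apoe from -0.12 to 0.048 and Scd2 from -0.096 to 0.0054. In the F test of the number, 2894 of the 9275 genes with a mean of at least 6 passed when only these were tested. The count was 2589 of the 12006 genes at or above the median, and 2843 of all 24012 with trend and robust variance. In these 3 settings 2, 1 and 1 LXR partners and 9, 8 and 11 other cholesterol handling genes passed (0 and 4 in the main setting). Leaving out a number gave 166 to 1019 genes, 2 to 5 of the 10, 3 to 8 other LXR targets, 1 to 4 cholesterol handling genes and 8 to 17 SREBP-2 genes, each lowest without number 1. The causes of these shifts were not tested. With 8 arrays, small changes could not be resolved.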

Other observations

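Among 19 other genes of cholesterol handling, 4 differed between the replicate numbers in the limma F test, against 5.6% of all genes and 11.9% of those with a mean of at least 6, and they did so in different directions. The count was 1 without number 1, against 0.691% of all genes, and 11 with trend and robust variance, against 11.8% of all genes. It was 9 when only genes with a mean of at least 6 were tested, of which 31.2% passed, and 8 among genes at or above the median. Scarb1, the receptor for high-density lipoprotein, stood at 9.26, 9.90, 10.17 and 9.67 on numbers 1 to 4. It was lower on numbers 1 and 4 than on 2 and 3, as the mean of the SREBP-2 genes was. Ch25h, which makes 25-hydroxycholesterol, was at 7.18, 7.67, 8.38 and 8.24, lowest on number 1. Cav1, the caveolin gene, was at 6.63, 6.58, 5.93 and 7.61, lowest on number 3 and highest on number 4 as Mylip was. The lipoprotein receptor gene Vldlr stood at 6.08 on number 1 and at 4.92, 4.81 and 4.77 on the others, above the 90th percentile of the background markers (5.63) on number 1 and below it on the others. Mylip encodes the ligase that degrades the VLDL receptor and the LDL receptor.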
